A study of Mus musculus with 80 samples.

Results

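The 10 circadian clock genes Per1, Per2, Per3, Cry1, Cry2, Clock, Arntl, Nr1d1, Nr1d2 and Dbp were followed by RNA sequencing of the gastrocnemius, a mixed calf muscle, of C57BL6/J mice. They were given as a list of gene symbols, chosen with earlier results of these data known. All 10 were present in the female table of 11068 genes and in the male table of 12853 genes. The mice underwent hindlimb unloading, in which the hind legs are held off the ground so that the calf carries no weight, or were controls labelled 0 h. Females gave 8 libraries at 0, 24, 48 and 72 h and 7 at 168 h, and males 7, 8, 9, 9 and 8 libraries over the same 5 times, where the study's design text states 8 per group. No genetic change, drug or age is named for any group. Comparing each time with 0 h asks which clock genes differ once the muscle is unloaded, and comparing the sexes asks whether those differences are alike. The labels do not say whether each library is a separate animal, so the p-values measure the spread between libraries, which may be technical. The time of day at which the muscles were taken is not given in the sources used here, and a difference in that time between groups cannot be told apart from unloading. In whole-muscle RNA, fewer cells of a type and less RNA per cell cannot be told apart.

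The circadian clock is a loop of transcription factors that runs in nearly every cell. CLOCK and BMAL1, the product of Arntl, bind E-boxes and switch on Per1, Per2, Per3, Cry1 and Cry2, whose proteins gather and inhibit CLOCK and BMAL1 until they are degraded. In a linked loop the nuclear receptors REV-ERBα and REV-ERBβ, encoded by Nr1d1 and Nr1d2, repress Arntl through the element called RRE, and DBP carries the rhythm to output genes through the D-box. In skeletal muscle the clock times the use of glucose and fat over the day, and Per1 is also a known direct target of the glucocorticoid receptor.

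These elements can be read in the promoters of the members. RefSeq windows of 300 bases, from 250 before to 50 after an annotated start (GRCm38.p6), were found for 9 members. The windows shown are those of the 3 genes whose level differed most often from 0 h (Cry2, Per1 and Nr1d1), and of Arntl and Per3, which ran opposite to each other between libraries. Capitals mark the matched motif, which on the printed strand may read as its reverse complement, and positions count from the start, with negative values before it.
Cry2 (chr2:92434020-92434319, minus strand): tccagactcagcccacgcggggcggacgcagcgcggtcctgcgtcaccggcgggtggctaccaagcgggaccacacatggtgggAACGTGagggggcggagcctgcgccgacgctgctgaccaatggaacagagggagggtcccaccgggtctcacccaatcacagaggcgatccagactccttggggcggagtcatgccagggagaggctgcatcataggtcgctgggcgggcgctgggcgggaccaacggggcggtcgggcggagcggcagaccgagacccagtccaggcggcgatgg
Per1 (chr11:69098699-69098998, plus strand): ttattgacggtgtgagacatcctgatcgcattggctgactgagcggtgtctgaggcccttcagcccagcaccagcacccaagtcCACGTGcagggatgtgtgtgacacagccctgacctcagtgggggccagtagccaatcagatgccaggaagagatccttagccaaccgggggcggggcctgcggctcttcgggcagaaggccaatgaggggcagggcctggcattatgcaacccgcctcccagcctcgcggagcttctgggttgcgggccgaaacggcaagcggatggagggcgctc
Nr1d1 (chr11:98775328-98775627, minus strand): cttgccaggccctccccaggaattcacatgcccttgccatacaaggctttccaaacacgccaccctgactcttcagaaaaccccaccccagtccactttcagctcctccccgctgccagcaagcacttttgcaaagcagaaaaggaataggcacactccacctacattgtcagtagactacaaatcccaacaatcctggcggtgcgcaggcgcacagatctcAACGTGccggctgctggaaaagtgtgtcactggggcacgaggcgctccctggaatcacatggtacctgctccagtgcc
Arntl (chr7:113207261-113207560, plus strand): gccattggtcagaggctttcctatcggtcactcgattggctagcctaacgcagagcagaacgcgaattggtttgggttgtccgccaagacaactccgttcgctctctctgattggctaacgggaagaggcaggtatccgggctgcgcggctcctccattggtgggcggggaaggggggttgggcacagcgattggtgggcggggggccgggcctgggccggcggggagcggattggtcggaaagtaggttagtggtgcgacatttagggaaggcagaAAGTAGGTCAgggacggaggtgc
Per3 (chr4:151044616-151044915, minus strand): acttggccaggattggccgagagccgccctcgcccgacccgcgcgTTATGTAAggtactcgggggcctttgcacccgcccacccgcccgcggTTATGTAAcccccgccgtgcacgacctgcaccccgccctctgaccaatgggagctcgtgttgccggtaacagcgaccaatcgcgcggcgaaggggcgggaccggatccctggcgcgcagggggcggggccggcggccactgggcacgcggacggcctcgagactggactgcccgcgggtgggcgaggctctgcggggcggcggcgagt
Both strands were searched. The E-box CACGTG stood at -166 in the first of the 2 Per1 windows and at -60 in the Cry1 window. Its close variant CACGTT stood at -166 in Cry2, at -28 in Nr1d1 and at -79 in Cry1. Per3 held 2 copies of the D-box TTANGTAA, at -205 and -158, and the second of the 2 Arntl windows held an RRE, searched as the half-site AGGTCA with ANNT just before it, at 27. Of 32851 promoter windows of the same length, 7.15% held CACGTG, 4.68% CACGTT, 2.32% the D-box and 0.700% the RRE. Neither the cyclic AMP element TGACGTCA (1.79% of all windows) nor the glucocorticoid element, searched as GNACA and TGTNC with 3 bases between them (0.475%), was matched in any member's window, and the windows of Dbp, Clock and Nr1d2 held none of the searched motifs. These matches describe letters and do not show binding. Only exact matches inside the windows were sought, so the lack of a match does not show that a gene lacks the element. No window was found for Per2.

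Signal here is the deposited value, estimated reads divided by a size factor for each library. Female libraries held an estimated 5.57 to 50.5 M reads and male libraries 18.0 to 49.7 M, and the female 24 h and 72 h libraries were the shallowest, at 9.03 ± 2.02 and 6.72 ± 1.34 M (SD, n = 8 each). In 7 female libraries, and in 0 male ones, the median Spearman correlation with the other libraries of the group lay under 0.95: 0 h replicate 7, 24 h replicates 1 and 2, 48 h replicate 5, 72 h replicates 2 and 5 and 168 h replicate 7. All 8 muscle fibre markers searched were present and made up 7.88% to 13.6% of a library's signal. The sample titles carry running library numbers whose meaning is not given. The female 0 h and 48 h libraries form a single run of numbers. Those of the other female times follow each other without overlap and were treated as another run, although their spacing differs at 168 h. The male 0 h and 168 h libraries and 2 of the 72 h libraries share a run that holds no male 24 h or 48 h library. The comparisons of female 48 h and male 168 h with 0 h are therefore within a run, and for female 24, 72 and 168 h and male 24 and 48 h the run cannot be told apart from unloading.

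Of the 10 clock genes, Cry2 was higher than at 0 h at every time of unloading in both sexes, and Per1 at every time in females and at 48 and 168 h in males. Nr1d1 was lower at 24 and 48 h in females and at 24 h in males, and its changes at the other times were below 0 but did not pass the test. Cry1 was higher at 72 h in females. Per2, Per3, Clock, Arntl, Nr1d2 and Dbp passed the test at no time in either sex. Changes are log2 differences of the signal plus 1 with their standard errors, tested with limma and called at a Benjamini-Hochberg adjusted p under 0.05 over all genes of the table. In females 3, 3, 3 and 2 of the 10 members were called at 24, 48, 72 and 168 h, where 24.7%, 38.1%, 30% and 10.7% of all genes were called. In males 2, 2, 1 and 2 members were called at these times, where 29.1%, 31%, 10.8% and 22.5% of all genes were called. These shares of members lie near those of all genes, so the clock genes as a group did not stand out by the number called. In females 4 markers of fibro-adipogenic progenitors, all present, also moved: 2, 2, 3 and 2 of them were lower at these times and 0 higher. Of all genes, 10.9%, 17.1%, 13.2% and 4.38% were lower in females. The summed share of these 4 markers in the signal was 0.0288% to 0.0990% (0 h), 0.0169% to 0.0661% (24 h), 0.0123% to 0.0307% (48 h), 0.00890% to 0.0201% (72 h) and 0.0118% to 0.0356% (168 h). Of the 8 muscle fibre markers, 0, 2, 2 and 2 were lower in females and 1 was higher at each time. Of all genes, 13.8%, 21%, 16.8% and 6.3% were higher. The summed share of the fibre markers was 10.4% to 13.6% at 0 h and 9.12% to 11.4% at 48 h. All 5 red blood cell markers were lower in females at 72 h, with a summed share of 0.0394% to 0.0863% against 0.0569% to 0.214% at 0 h. Both tenocyte markers in the female table were lower at 48 h and 1 of the 2 at 24, 72 and 168 h, and their summed share was 0.000428% to 0.00160% at 48 h against 0.00160% to 0.00480% at 0 h. In males all 3 smooth muscle markers were lower at 48 h, where 14.7% of all genes were lower. Their summed share was 0.00489% to 0.00828% against 0.00558% to 0.0107% at 0 h. The part of any of these in the changes of the clock genes was not tested.

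**Figure D1:**
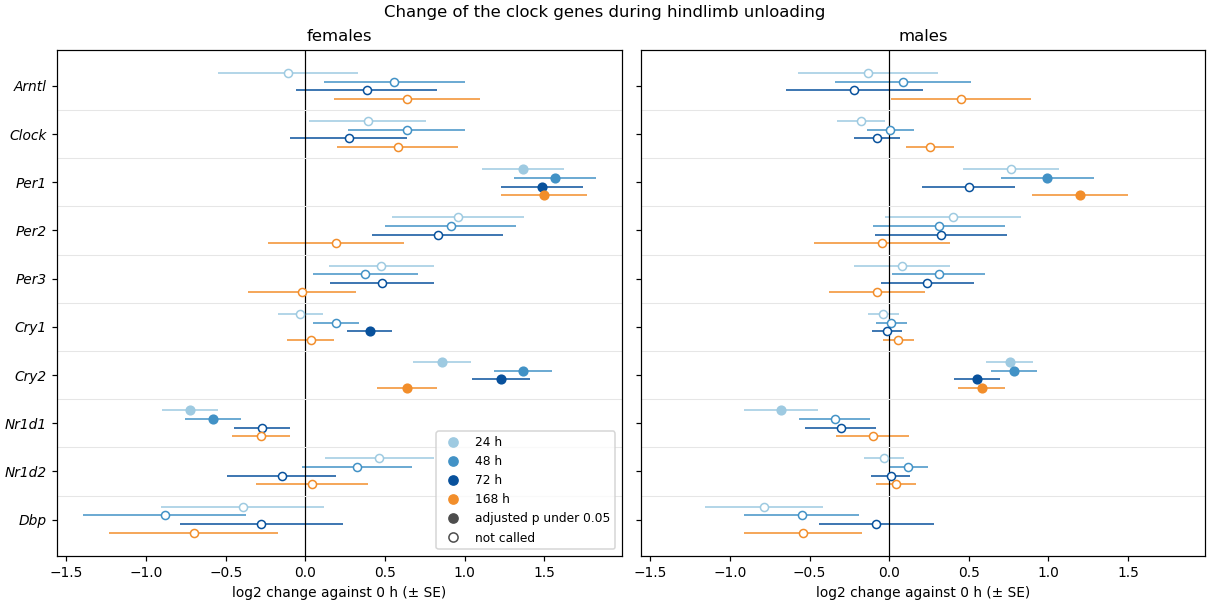
Log2 change of each clock gene against 0 h (x axis, ± SE) at 24, 48, 72 and 168 h in females (left) and males (right); filled points passed an adjusted p of 0.05. Cry2 and Per1 lie to the right of 0 at all 4 times in both sexes, and Nr1d1 lies to the left, most clearly at 24 h.

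Cry2 encodes a cryptochrome, one of the proteins that inhibit CLOCK and BMAL1 (ENSMUSG00000068742, chromosome 2, 92233991 to 92264388, minus strand, in the coordinates of the tables). Its lowest, median and highest signal in females was 365, 582 and 892 (0 h), 888, 993 and 1197 (24 h), 951, 1399.6 and 2189.7 (48 h), 831, 1361 and 2126 (72 h), and 603, 826 and 1239 (168 h). All 8 libraries at 48 h, 7 of 8 at 24 h, 7 of 8 at 72 h and 3 of 7 at 168 h lay above the highest 0 h library. The change was 0.86 ± 0.18 (adjusted p = 0.00065) at 24 h, 1.37 ± 0.18 (adjusted p = 3.4e-07) at 48 h, 1.23 ± 0.18 (adjusted p = 3.3e-06) at 72 h and 0.64 ± 0.19 (adjusted p = 0.022) at 168 h, or 1.81-, 2.58-, 2.34- and 1.56-fold. The 48 h value is within a library run. The call at 168 h was lost, with adjusted p between 0.051 and 0.07, when 0 h replicate 3, 4 or 5 or 168 h replicate 1 or 5 was left out. Cry2 shares 295 exonic bases, 4.67% of its length in GRCm38, with D930015M05Rik on the opposite strand.

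In males the lowest, median and highest Cry2 signal was 830.5, 1601 and 1950.0 (0 h), 1973, 2581 and 2918 (24 h), 2033, 2597 and 3352 (48 h), 1947, 2148 and 2641 (72 h), and 1263, 2415 and 2996 (168 h). All libraries at 24 h and 48 h, 8 of 9 at 72 h and 6 of 8 at 168 h exceeded the highest 0 h library. The change was 0.76 ± 0.15 (adjusted p = 0.00018) at 24 h, 0.78 ± 0.14 (adjusted p = 6.5e-05) at 48 h, 0.55 ± 0.14 (adjusted p = 0.0096) at 72 h and 0.58 ± 0.15 (adjusted p = 0.004) at 168 h, or 1.69-, 1.72-, 1.47- and 1.50-fold. The 168 h value is within a run. At 72 h the 2 libraries that share the run of the controls gave 0.70, adjusted p = 0.1, and the other 7 gave 0.51, adjusted p = 0.038.

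Per1 encodes a period protein, the partner of the cryptochromes (ENSMUSG00000020893, chromosome 11, 68986043 to 69000786, plus strand). The lowest, median and highest signal of Per1 in females was 182, 458 and 1281 (0 h), 919.8, 1157 and 1894 (24 h), 986, 1507 and 2009 (48 h), 913, 1314 and 1866 (72 h), and 1025, 1273 and 1791 (168 h). Every unloaded female library lay above the mean of the 0 h libraries, and the ranges overlapped because 0 h replicates 6 and 8, at 1281 and 1017, stood above the other 6 controls, whose highest value was 500.2. The change was 1.37 ± 0.26 (adjusted p = 0.00018), 1.57 ± 0.26 (adjusted p = 1.0e-05), 1.49 ± 0.26 (adjusted p = 3.6e-05) and 1.50 ± 0.27 (adjusted p = 0.0002) at 24, 48, 72 and 168 h, between 2.58- and 2.96-fold. These calls held when any single library was left out, with adjusted p of at most 0.00087.

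In males the lowest, median and highest Per1 signal was 551, 1437 and 1986 (0 h), 1233, 2287 and 2885 (24 h), 1102, 2650.2 and 3557 (48 h), 571, 1785 and 3115 (72 h), and 1103, 3443 and 3847 (168 h). The groups overlapped at each time, and 5 of 8, 8 of 9, 4 of 9 and 6 of 8 unloaded libraries lay above the highest 0 h library. The change was 0.77 ± 0.30 (adjusted p = 0.051) at 24 h, 0.99 ± 0.29 (adjusted p = 0.0086) at 48 h, 0.50 ± 0.29 (adjusted p = 0.3) at 72 h and 1.20 ± 0.30 (adjusted p = 0.0036) at 168 h. The 24 h value stood at the threshold: with a pseudocount of 10 its adjusted p was 0.049, and it was called in 9 of the 41 fits that left out a library each, where adjusted p ran from 0.028 without 72 h replicate 3 to 0.15.

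**Figure D2:**
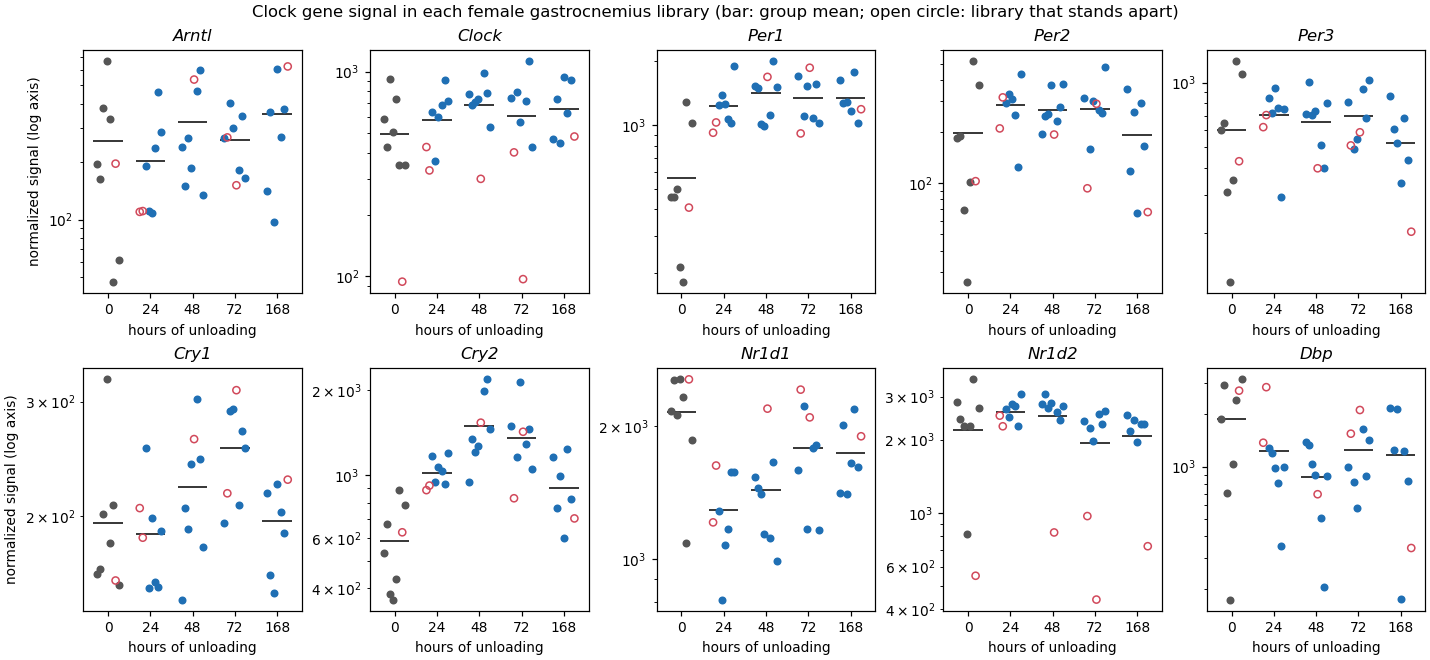
Normalized signal (log y axis) of each clock gene in each female library against hours of unloading; the bar is the group mean, grey points are 0 h, and open red circles mark the 7 libraries that stand apart. Cry2 at 48 h lies wholly above 0 h, whereas Arntl, Per2, Per3 and Dbp overlap between all times.

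Per2, which encodes another period protein, ranged widely at 0 h in females. The lowest, median and highest values were 26.4, 143 and 518 (0 h), 124, 303 and 436 (24 h), 192, 250.1 and 378 (48 h), 93, 279.8 and 476 (72 h), and 66.9, 165 and 355 (168 h). Every unloaded library lay within the 0 h range, and the change at 24, 48, 72 and 168 h was 0.96 ± 0.41 (adjusted p = 0.086), 0.91 ± 0.41 (adjusted p = 0.079), 0.83 ± 0.41 (adjusted p = 0.13) and 0.19 ± 0.43 (adjusted p = 0.84). Single 0 h libraries weighed on the tests at 24, 48 and 72 h: without 0 h replicate 6, at 518, Per2 was called at 24 h (1.23, adjusted p = 0.022), 48 h (1.18, adjusted p = 0.018) and 72 h (1.10, adjusted p = 0.034), and without 0 h replicate 8 at 24 h (1.17, adjusted p = 0.039) and 48 h (1.12, adjusted p = 0.032). In males Per2 had medians of 682, 796, 598, 646 and 709 from 0 to 168 h, and its changes, between -0.05 and 0.40, did not pass. Per3, the remaining period gene, had a signal of 119, 515 and 1260.5 (0 h), 294, 737 and 942 (24 h), 399, 709.7 and 1001 (48 h), 492, 637 and 1030.2 (72 h), and 202, 525.8 and 864 (168 h) in females and 449, 1576 and 1969 (0 h), 715, 1384 and 1660.0 (24 h), 1084, 1625 and 2071 (48 h), 933, 1530.0 and 2061 (72 h), and 404, 1459.5 and 2297 (168 h) in males (lowest, median and highest), with overlap at every time. It changed by 0.48 ± 0.33, 0.38 ± 0.33, 0.48 ± 0.33 and -0.02 ± 0.34 in females and by 0.08 ± 0.30, 0.31 ± 0.29, 0.24 ± 0.29 and -0.08 ± 0.30 in males, with adjusted p of at least 0.28.

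Cry1, the other cryptochrome gene, was among the steadiest members. Lowest, median and highest signal in females was 157, 174 and 325 (0 h), 155, 188 and 255 (24 h), 149, 223 and 303 (48 h), 195, 263 and 312 (72 h), and 152, 203 and 228 (168 h). The 72 h libraries lay within the 0 h range, and only 0 h replicate 4, at 325, exceeded them all. The change at 72 h was 0.40 ± 0.14 (adjusted p = 0.028). This call was lost without the 7 libraries that stand apart (0.35, adjusted p = 0.076), and without 0 h replicate 1, 2, 7 or 8 or 72 h replicate 3, 4 or 5, with adjusted p between 0.052 and 0.059. In males Cry1 changed by -0.04 ± 0.10, 0.01 ± 0.09, -0.01 ± 0.09 and 0.06 ± 0.10, and the 95% interval at 72 h was -0.20 to 0.17.

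Nr1d1 encodes REV-ERBα, the repressor of Arntl (ENSMUSG00000020889, chromosome 11, 98658758 to 98666159, minus strand). Female libraries had a lowest, median and highest Nr1d1 signal of 1087, 2243 and 2553 (0 h), 811, 1248 and 1627 (24 h), 992, 1424 and 2187 (48 h), 1162, 1794 and 2414 (72 h), and 1406, 1653 and 2181 (168 h). All 8 libraries at 24 h and 7 of 8 at 48 h lay below the 0 h mean. The ranges overlapped with 0 h at every time. Of the controls, replicate 6 was low, at 1087, and the other 7 lay between 1857 and 2553, above every 24 h library but not every later one. The change was -0.72 ± 0.17 (adjusted p = 0.0023) at 24 h, -0.58 ± 0.17 (adjusted p = 0.0078) at 48 h, -0.27 ± 0.17 (adjusted p = 0.25) at 72 h and -0.28 ± 0.18 (adjusted p = 0.37) at 168 h.

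In males the lowest, median and highest Nr1d1 signal was 3762, 5093 and 6868 (0 h), 1719, 3409 and 5599 (24 h), 2498, 4661 and 5483 (48 h), 2105, 4630.3 and 5562 (72 h), and 2763, 5132 and 8184 (168 h). At 24 h, 4 of 8 libraries lay below the lowest 0 h library and 7 of 8 below the 0 h mean. The change was -0.68 ± 0.23 (adjusted p = 0.024) at 24 h and -0.34 ± 0.22 (adjusted p = 0.25), -0.31 ± 0.22 (adjusted p = 0.43) and -0.10 ± 0.23 (adjusted p = 0.78) at 48, 72 and 168 h. The 24 h call was lost without 0 h replicate 7 (adjusted p = 0.053) or without 24 h replicate 3 (0.051) or 8 (0.067). Exons of Nr1d1 overlap those of Thra on the opposite strand over 263 bases, 8.55% of its exonic length in GRCm38, and whether the counting used strand is not given in the sources used here.

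Nr1d2, the gene of the related receptor REV-ERBβ, did not pass at any time. In males its median was 7196, 7459.9, 8000.2, 7809 and 7688 from 0 to 168 h, with changes between -0.03 and 0.12. In females Nr1d2 was 551 in 0 h replicate 7, 829.5 in 48 h replicate 5, 969 and 439 in 72 h replicates 2 and 5, and 728 in 168 h replicate 7, all libraries that stand apart, and 820.0 in 0 h replicate 4, which does not. The other female libraries lay between 1957 and 3551, and the changes at 24, 48, 72 and 168 h were 0.46 ± 0.34, 0.32 ± 0.34, -0.15 ± 0.34 and 0.04 ± 0.35.

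**Figure D3:**
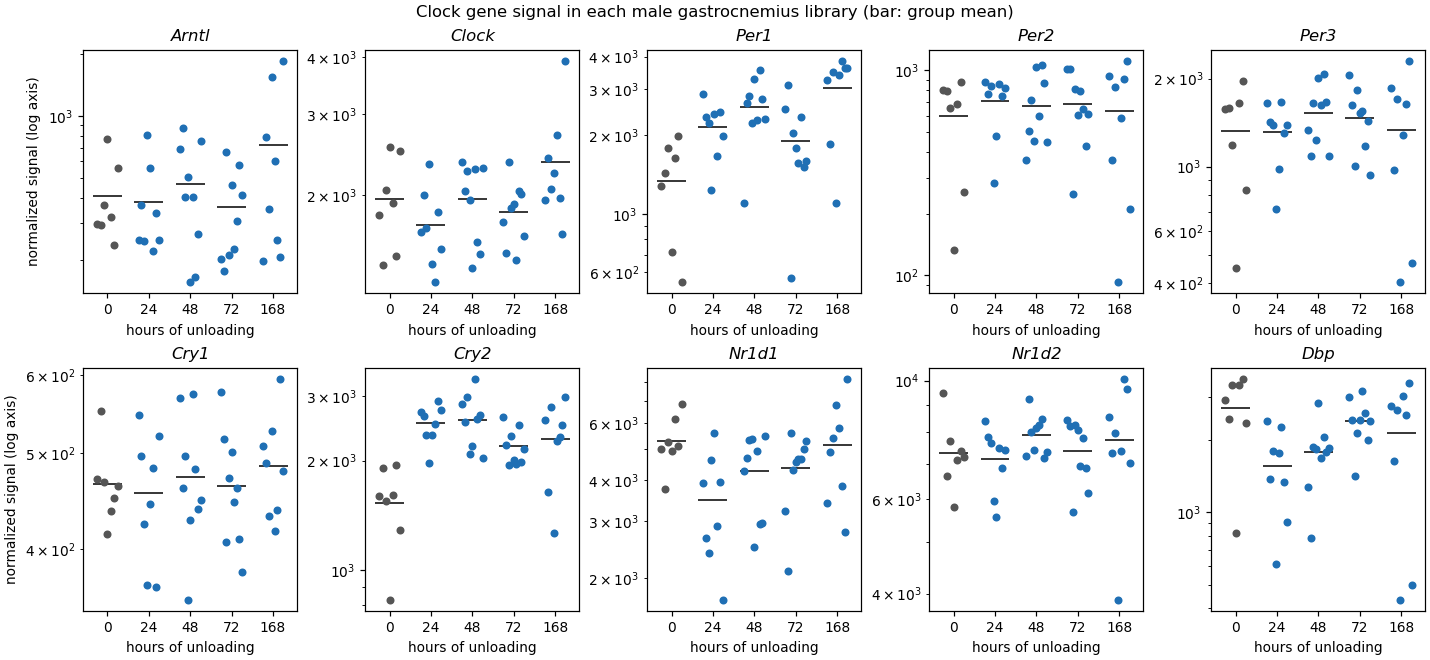
Normalized signal (log y axis) of each clock gene in each male library against hours of unloading; the bar is the group mean and grey points are 0 h. Cry2 lies above the 0 h range in all libraries at 24 and 48 h, and the 168 h group spans the widest range of Arntl.

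Arntl, which encodes the activator BMAL1 (ENSMUSG00000055116, chromosome 7, 112806672 to 112913333, plus strand), varied widely within groups and did not pass at any time. Its lowest, median and highest signal in females was 47.5, 195 and 669.5 (0 h), 108.7, 150.2 and 459 (24 h), 134, 252 and 604 (48 h), 151, 266 and 406 (72 h), and 96.7, 364 and 627 (168 h). In males it was 237, 324 and 771 (0 h), 221, 295 and 810.2 (24 h), 157, 403 and 876 (48 h), 176, 309 and 664 (72 h), and 197, 477 and 1845 (168 h). The groups overlapped throughout, and each 95% interval of the change included 0. In females these intervals were -0.98 to 0.76 (24 h), -0.31 to 1.43 (48 h), -0.48 to 1.25 (72 h) and -0.26 to 1.54 (168 h), and in males they were -0.99 to 0.73, -0.75 to 0.93, -1.06 to 0.62 and -0.41 to 1.31. Clock, whose product pairs with BMAL1, did not pass either. Its medians from 0 to 168 h were 468, 616, 719, 641 and 629 in females and 1921, 1680.5, 2039.8, 1881 and 2150.0 in males. Clock changed at 24, 48, 72 and 168 h by -0.18 ± 0.15, 0.01 ± 0.15, -0.08 ± 0.15 and 0.26 ± 0.15 in males and by 0.39 ± 0.37, 0.64 ± 0.37, 0.27 ± 0.37 and 0.58 ± 0.38 in females, where 0 h replicate 7 and 72 h replicate 5, both standing apart, were at 94.2 and 97.

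Dbp, the output factor that acts on D-boxes (ENSMUSG00000059824, chromosome 7, 45354512 to 45359627, plus strand), had changes below 0 at every time in both sexes, and none passed the test. In females the lowest, median and highest Dbp signal was 173, 2145 and 3184 (0 h), 349, 1101 and 2854 (24 h), 204, 893 and 1378 (48 h), 581, 1210.0 and 2111 (72 h), and 175, 1221 and 2156 (168 h). In males it was 822, 2917 and 3579 (0 h), 612, 1573 and 2396 (24 h), 785, 1825 and 2835 (48 h), 1409.9, 2405 and 3200.2 (72 h), and 435, 2596 and 3429 (168 h). The groups overlapped at every time in both sexes. The change at 24, 48, 72 and 168 h was -0.39 ± 0.51 (adjusted p = 0.61), -0.88 ± 0.51 (adjusted p = 0.17), -0.28 ± 0.51 (adjusted p = 0.73) and -0.70 ± 0.53 (adjusted p = 0.46) in females and -0.79 ± 0.37 (adjusted p = 0.11), -0.55 ± 0.36 (adjusted p = 0.26), -0.08 ± 0.36 (adjusted p = 0.93) and -0.54 ± 0.37 (adjusted p = 0.31) in males. A single low control weighed on these tests in each sex. Without female 0 h replicate 4, at 173, the 48 h change was called (-1.31, adjusted p = 0.024). Without male 0 h replicate 4, at 822, the 24 h change was called (-1.05, adjusted p = 0.03). At the other times leaving out a library gave no call for Dbp. Dbp exons overlap those of Sphk2 on the opposite strand over 539 bases, 18.0% of its exonic length.

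The authors' deposited table gave the same calls for all members at 6 of the 8 time points. In the authors' deposited table Per1 was also called in males at 24 h (log2 ratio 0.68, FDR 0.049) and Dbp in females at 48 h (log2 ratio -1.12, FDR 0.034).

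No member passed the limma test between neighbouring times of unloading in either sex, where 6.66%, 0.596% and 3.56% of all genes were called in females at 48 against 24 h, 72 against 48 h and 168 against 72 h, and 0.0156%, 8.81% and 0.296% in males. At an unadjusted p under 0.05 stood 1, 0 and 2 members in females and 0, 0 and 2 in males. The nearest to a call was Cry2 in females, which differed by 0.51 ± 0.18 (adjusted p = 0.076) at 48 against 24 h and by -0.59 ± 0.19 (adjusted p = 0.076) at 168 against 72 h. The first was called without 48 h replicate 1 (0.60, adjusted p = 0.035), and the second without 72 h replicate 2 (-0.68, adjusted p = 0.031) or 168 h replicate 5 (-0.67, adjusted p = 0.044).

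The female change minus the male change was tested for 10964 genes, of which 0.0547%, 0.301%, 2.44% and 0.0182% were called at 24, 48, 72 and 168 h. No member was called with limma, and 0, 1, 3 and 0 members had an unadjusted p under 0.05 at these times. At 72 h the differences were 0.67 ± 0.24 (adjusted p = 0.11) for Cry2, 0.99 ± 0.39 (adjusted p = 0.16) for Per1 and 0.42 ± 0.17 (adjusted p = 0.17) for Cry1, with 95% intervals of 0.21 to 1.14, 0.22 to 1.76 and 0.08 to 0.75. Cry2 was called there without the 7 female libraries that stand apart (0.79, adjusted p = 0.04) and without male 0 h replicate 4 (0.81, adjusted p = 0.037). Estimated depth at 72 h was 6.72 ± 1.34 M reads in females (SD, n = 8) and 38.9 ± 3.39 M in males (SD, n = 9), and the summed share of the fibro-adipogenic markers in males was 0.0154% to 0.0537% at 72 h and 0.0146% to 0.0534% at 0 h, beside the female values above. Their part in the difference was not tested.

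Within groups several clock genes varied more between libraries than nearly all other genes. The residual SD of Arntl on the log2 scale was 0.922 in females, above that of 97.5% of genes, and 0.868 in males, above 98.5%. Dbp had 1.07 in females (98.7%) and 0.734 in males (97.7%), and Per2 0.863 (96.7%) and 0.844 (98.4%). The median over all genes was 0.289 in females and 0.214 in males. Cry1 was close to that median, at 0.287 in females and 0.189 in males. In females the SD of Clock was 0.767 and that of Nr1d2 0.714, and without the 7 libraries that stand apart these were 0.438 and 0.340.

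This spread was partly shared between members. After the group mean was removed, 23 of the 45 pairs of members were correlated in females (39 libraries), 13 positively and 10 negatively, and 35 of 45 in males (41 libraries), 20 positively and 15 negatively, by two-sided permutation tests with adjusted p over the 45 pairs. The share of pairs called among all genes was not computed, so these counts do not set the members apart from other genes. Arntl ran opposite to Dbp, Per2 and Per3. Its Pearson's r was also below 0 with Per1 (-0.45 in females and -0.61 in males), Nr1d2 (-0.33 and -0.64) and Cry2 (-0.34 and -0.44). Arntl did not run opposite to every gene that BMAL1 is known to activate. Cry1 had a Pearson's r with Arntl of 0.37 in females and -0.25 in males. For Arntl and Dbp, Pearson's r was -0.81 and Spearman's rho -0.80 in females (adjusted p = 7.5e-05 and 0.00015), and r was -0.77 and rho -0.72 in males (adjusted p = 4.1e-05 and 3.5e-05, permutation tests). The unadjusted p for r was 1e-05 in each sex, the smallest the permutations can give. Without the 2 libraries farthest in Arntl, r was -0.80 in females and -0.70 in males. Within the library runs r was -0.83 and -0.79 in females and from -0.86 to -0.61 in males. In each of the 5 groups it was negative, from -0.88 to -0.75 in females and from -0.89 to -0.62 in males.

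**Figure D4:**
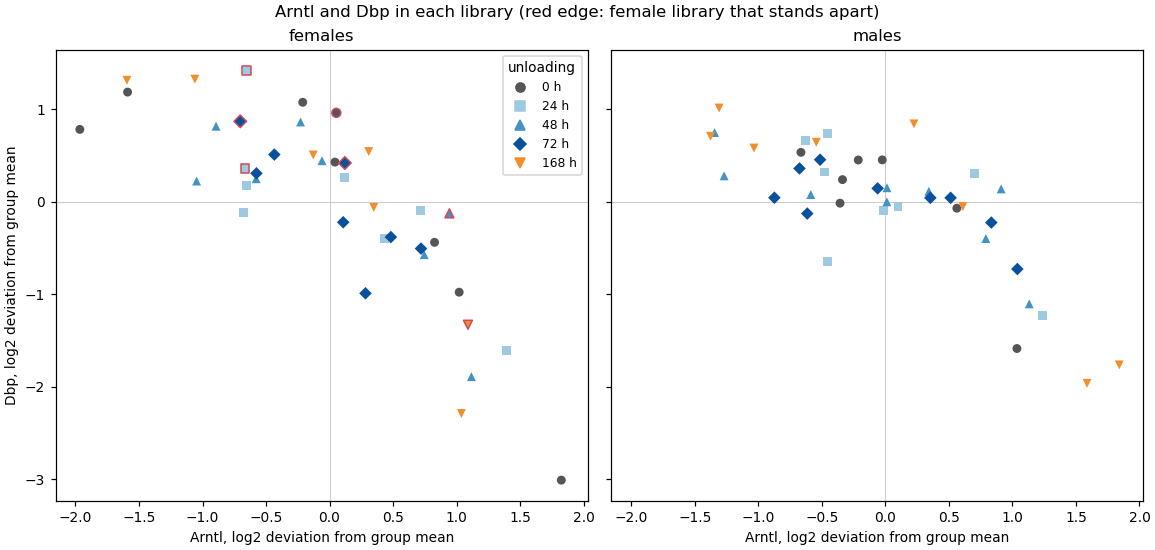
Deviation of Dbp (y axis) against deviation of Arntl (x axis) from the group mean, both log2, in each female (left) and male (right) library; colours and markers give the hours of unloading. Libraries of all 5 times fall along a descending band in both sexes, with r of -0.81 in females and -0.77 in males.

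Arntl also ran opposite to Per3, the member whose window held 2 D-boxes (r = -0.83 in females and -0.88 in males; rho = -0.77 and -0.88) and Per2 (r = -0.76 in females and -0.90 in males; rho = -0.71 and -0.94). Of all other genes tested, 11065 had a higher r with Arntl than Per3 in females and 1 a lower r. In males 12850 had a higher r with Arntl than Per2 and 1 a lower r. Per2 and Per3 ran together (r = 0.86 in females and 0.93 in males; rho = 0.75 and 0.93). Arntl, which held an RRE in the second of its 2 windows, ran with Nr1d1 (r = 0.55 in females and 0.75 in males; rho = 0.47 and 0.76), whose product represses it through that element, and with its partner Clock (r = 0.40 in females and 0.76 in males; rho = 0.60 and 0.76), where r in females was 0.76 without the 7 libraries that stand apart. Each of these pairs passed, with an adjusted permutation p for r of at most 0.03. The part of the D-box and RRE matches in these correlations was not tested. Without the 2 farthest libraries r was -0.80 and -0.88 for Arntl and Per3, -0.68 and -0.92 for Arntl and Per2, 0.79 and 0.90 for Per2 and Per3, 0.44 and 0.71 for Arntl and Nr1d1, and 0.50 and 0.69 for Arntl and Clock, in females and males. Some members did not stand out from other genes in this way. In females 17.3%, 18.0%, 13.5% and 10.2% of genes had a larger absolute r with Arntl than Cry2, Nr1d2, Cry1 and Clock. In males 34.2% had a larger one than Cry1 and 8.55% than Cry2.

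The range can be seen in single libraries. At 168 h, male replicates 8 and 4 had 1845 and 1547 for Arntl and 499 and 435 for Dbp, where the other 6 libraries had 197 to 785 for Arntl and 1638 to 3429 for Dbp. At 0 h, female replicate 6 had 47.5 for Arntl and 518 for Per2, and replicate 4 had 669.5 and 26.4. Libraries far apart in Arntl were thus found both at 0 h and after unloading.

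Per1 and Cry2, the members that were higher after unloading, also ran together between libraries of a group (r = 0.66 in females and 0.60 in males; rho = 0.67 and 0.57, adjusted permutation p = 0.00032 and 0.0004 for r), and without the 2 farthest libraries r was 0.62 in females and 0.54 in males. In males this pair was uneven: r was 0.81 over the 17 libraries of the controls' run, 0.20 over 16 libraries of 24 and 48 h and 0.40 over the last 8. Clock and Nr1d2 had r of 0.67 in females but -0.19 without the 7 libraries that stand apart. Cry1 was called with 2 of the other 9 members in females and with 3 in males. Its pair with Per3 was called in both sexes but had opposite signs, r = -0.42 in females and 0.31 in males, and the difference between the sexes was not tested.

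**Figure D5:**
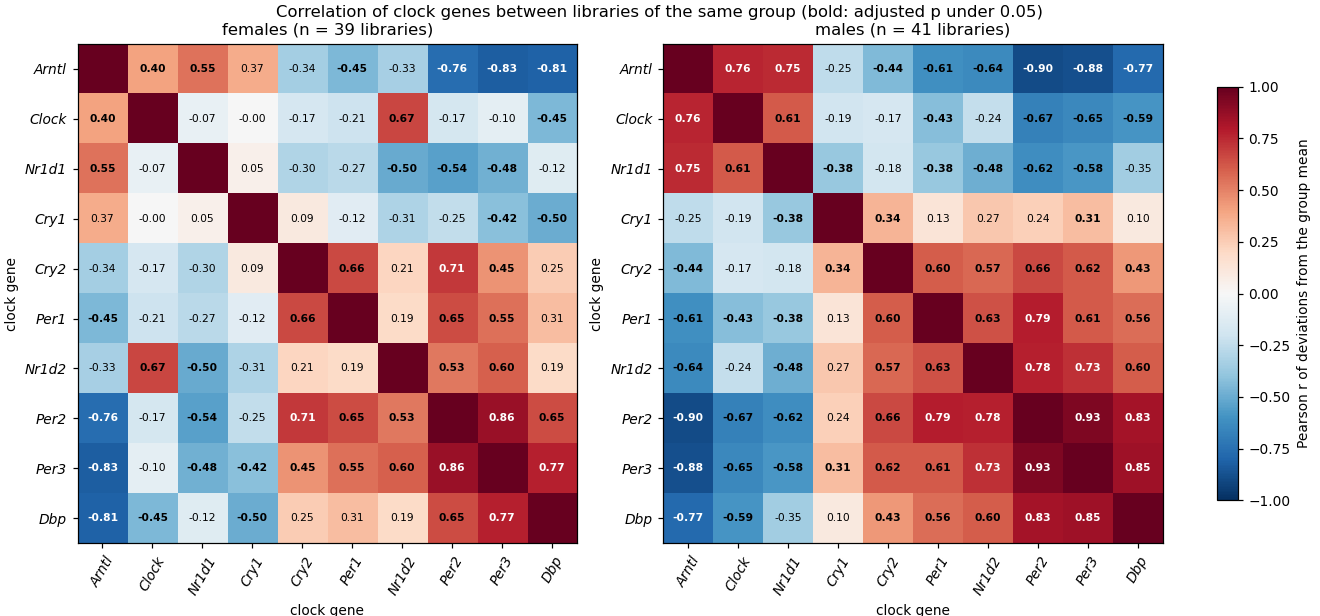
Pearson's r of each pair of clock genes over 39 female (left) and 41 male (right) libraries after the group mean is removed; red is positive, blue negative, and bold marks an adjusted p under 0.05. Arntl is negative with Per2, Per3 and Dbp in both sexes, and Per2, Per3 and Dbp form a positive block.

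The 5 genes most like Arntl by this measure, among genes with a mean signal of at least 50, were Auts2 (r = 0.87), Slc16a9 (0.82), Rabgef1 (0.80), Rab11fip3 (0.76) and Sh3bp5 (0.76) over 39 female libraries. Over 41 male libraries the first 4 were Slc25a36 (r = 0.88), Auts2 (0.87), Tead4 (0.86) and Ppp1r27 (0.84). Those most like Dbp were Zfp503 (r = 0.83), Usp2 (0.83), Per3 (0.77), Bhlhe40 (0.76) and Hlf (0.75) in females and Per3 (r = 0.85), Usp2 (0.85), Per2 (0.83), Ciart (0.80) and Hlf (0.80) in males. Auts2 is on both Arntl lists, and Usp2, Per3 and Hlf on both Dbp lists. Usp2 encodes a deubiquitinating enzyme, and Hlf a relative of DBP.

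The fits were repeated with the log2 level of Arntl as a covariate, an alternative chosen after seeing the data. All 18 calls of the plain fits held. In females Per2 was then called at 24 h (0.88, adjusted p = 0.015), 48 h (1.31, adjusted p = 0.00033) and 72 h (1.11, adjusted p = 0.0024), and Per3 at 48 h (0.72, adjusted p = 0.0034) and 72 h (0.72, adjusted p = 0.0042). In males Per1 (0.71, adjusted p = 0.022) and Dbp (-0.87, adjusted p = 0.0048) were called at 24 h, and Per3 (0.36, adjusted p = 0.044) and Nr1d1 (-0.38, adjusted p = 0.05, just under the threshold before rounding) at 48 h. At 24, 48 and 72 h 25.7%, 34.9% and 28.9% of all genes were called in this fit in females, and 31.1% and 32.2% at 24 and 48 h in males. Arntl was itself measured after unloading, so these values are changes at a given level of Arntl.

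A list of 30 other clock factors and clock kinases had 26 genes in the female table. In females 6, 14, 9 and 2 of them were higher and 1, 0, 0 and 0 lower at 24, 48, 72 and 168 h, where 13.8%, 21%, 16.8% and 6.3% of all genes were higher and 10.9%, 17.1%, 13.2% and 4.38% lower. The median change of the list was 0.19, 0.34, 0.25 and 0.20, beside 0.06, 0.06, 0.03 and 0.05 for all genes. In males, where 28 were measured, 9, 11, 2 and 7 were higher, where 14.8%, 16.3%, 5.61% and 11% of all genes were, and 0 lower at any of these times, with list medians of 0.15, 0.11, 0.08 and 0.14 beside at most 0.01 for all genes.

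Named genes of that list rose at several times. Hdac3, the corepressor enzyme that acts with REV-ERBα, changed by 0.15 ± 0.07 (not called), 0.29 ± 0.07, 0.46 ± 0.07 and 0.21 ± 0.07 at 24, 48, 72 and 168 h in females and by 0.16 ± 0.05, 0.22 ± 0.05, 0.27 ± 0.05 and 0.20 ± 0.05 in males. Ddb1, part of a ubiquitin ligase, changed by 0.19 ± 0.10 (not called), 0.53 ± 0.10, 0.46 ± 0.10 and 0.18 ± 0.10 (not called) in females and by 0.25 ± 0.06, 0.25 ± 0.05, 0.12 ± 0.05 (not called) and 0.23 ± 0.06 in males. Tef, a relative of Dbp, changed by 0.38 ± 0.12, 0.65 ± 0.12, 0.47 ± 0.12 and 0.15 ± 0.12 (not called) in females. Csnk1e, which encodes a kinase that phosphorylates period proteins, changed by 0.38 ± 0.08, 0.36 ± 0.07, 0.20 ± 0.07 (not called) and 0.33 ± 0.08 in males.

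Other known targets of the glucocorticoid receptor were also counted, on a list chosen with earlier results of these data known. Of 12 such genes, a list without Per1, 8, 10, 8 and 10 were higher in females at 24, 48, 72 and 168 h and 9, 6, 3 and 8 in males, and 0 were lower in either. Of all genes, 13.8%, 21%, 16.8% and 6.3% were higher in females and 14.8%, 16.3%, 5.61% and 11% in males at these times. The shares of all genes that were lower were 10.9%, 17.1%, 13.2% and 4.38% in females and 14.4%, 14.7%, 5.22% and 11.5% in males. The list median was 1.09, 1.07, 0.74 and 1.31 in females and 0.67, 0.61, 0.48 and 0.69 in males, where the median of all genes was at most 0.06 in females and 0.01 in males. Fkbp5, which encodes a cochaperone of the receptor, changed by 2.70 ± 0.28, 2.60 ± 0.28, 1.95 ± 0.28 and 2.66 ± 0.29 in females and by 1.41 ± 0.21, 1.21 ± 0.21, 0.58 ± 0.21 (not called) and 1.06 ± 0.21 in males. Tsc22d3, which encodes the glucocorticoid-induced leucine zipper, changed by 1.24 ± 0.17, 1.40 ± 0.17, 1.17 ± 0.17 and 1.33 ± 0.17 in females and by 0.78 ± 0.14, 0.79 ± 0.14, 0.51 ± 0.14 and 0.77 ± 0.14 in males. Klf9, a transcription factor that glucocorticoids induce, changed by 0.94 ± 0.18, 0.94 ± 0.18, 0.42 ± 0.18 (not called) and 0.85 ± 0.19 in females and by 0.64 ± 0.14, 0.64 ± 0.13, 0.25 ± 0.13 (not called) and 0.61 ± 0.14 in males. The part of glucocorticoid signalling in the change of Per1 was not tested.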

How the data were processed

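RNA sequencing of gastrocnemius was deposited as one table per sex, with 39 female and 41 male libraries in 10 groups. Groups follow the sex and time point in the labels. Partek, DESeq2 and STAR 2.7.8a are listed in the submitters' processing notes, as are mm10 and mm39 as builds, without roles. The authors deposited a normalized signal, which the values show to be estimated reads divided by a size factor per library: between 53.9% and 71.7% of values from 2 to 120 were whole reads within 0.03, where chance gives 6%. They are not counts, so the log2 of signal plus a pseudocount of 1 was tested with limma 3.58.1 (R 4.3.3), with trended and robust variances. Each sex had its own 5-group model, and 1 model over 10 groups gave the sex differences. The authors' deposited table gives a ratio and an FDR-adjusted p-value per gene. Every gene in the tables reached a signal of at least 100.0 in some library (lowest row maximum 100.02 in males and 100.01 in females), as did all 10 members. Levels were not compared between sexes, which were normalized separately.

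Correlations used 100000 permutations within groups. Single-member p-values carry the limma adjustment over all genes. Promoter windows come from RefSeq (GRCm38.p6). Coordinates are those of the tables, whose build is not named there: 2.48% of 12928 matched genes start as in GRCm38. The limma and correlation scripts were tested on simulated data. Python 3.11.15, numpy 2.4.6, pandas 2.3.3, scipy 1.17.1 and matplotlib 3.10.9 were used. The members, gene lists and tests were chosen with earlier results of these data known. Named genes are all members, up to 4 genes of each other list with the smallest p per table, and the 5 genes most like Arntl and Dbp. A few of these are not reported here. Alternatives were another pseudocount, filter, scaling, array weights, groups fitted, library runs, libraries left out, and Arntl as a covariate.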

Additional observations from a re-analysis of the deposited data

Results flagged for a closer look

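Of 100 combinations of member, sex and time, 11 held a library set apart from the rest of its group by a Dixon test on the log2 signal, where chance alone gives about 5%. In males Per1 was low in 48 h replicate 1, at 1102 beside 2220.2 to 3557 in the other 8 libraries, and in 72 h replicate 3, at 571 beside 1508 to 3115. Male Nr1d2 was low in 168 h replicate 4, at 3899 beside 7008 to 10074, and male Dbp in 0 h replicate 4, at 822 beside 2354 to 3579. In the Nr1d2 library Arntl was 1547, with 197 to 1845 in the rest of its group, and in the Dbp library it was 771, with 237 to 556 in the rest.

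In females Per3 was low in 24 h replicate 7, at 294 beside 620.3 to 942, and Nr1d1 in 0 h replicate 6, at 1087 beside 1857 to 2553. Cry1 was high in 0 h replicate 4, at 325 beside 157 to 208. Clock was low in 0 h replicate 7, at 94.2 beside 349 to 919, and in 72 h replicate 5, at 97 beside 403 to 1126. Nr1d2 was low in 48 h replicate 5, at 829.5 beside 2396 to 3072, and in 168 h replicate 7, at 728 beside 1957 to 2516. The 4 Clock and Nr1d2 values are from libraries that stand apart from their groups over all genes.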

How the results depend on the processing

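No paired analysis was possible because no label numbers replicates, which were numbered by accession order. Of 180 member changes, 18 were called, and none of these changed sign in any alternative or without any single library. Outside of leaving out libraries 2 lost the call: Cry1 in females at 72 h without the 7 libraries that stand apart, and Cry2 in males at 72 h with only the 2 libraries of the controls' run. Leaving out a library in turn ended 3 calls. A further 13 changes were called only in an alternative, and of the 149 called in none, 61 changed sign in at least 1 alternative.

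Some counts of members called moved by over 1.5 times. In females the count at 48 against 24 h was 1 with libraries scaled to the same total (Cry2, adjusted p = 0.037). In males the count at 24 h was 4 with array weights and 4 with Arntl as a covariate, which also gave 4 in males at 48 h, 5 in females at 48 h and 5 in females at 72 h. Smaller moves were 3 in males at 24 h with a pseudocount of 10, a mean of at least 100 or the compared groups alone, 4 in females at 24 h with the covariate, 4 at 48 h with array weights and 2 at 72 h without the 7 libraries. The sex difference at 72 h had 1 member with array weights (Cry2, adjusted p = 0.035) and 1 without the 7 libraries, and male 72 h had 0 with the 2 libraries of the controls' run. Without each library in turn, the count ran from 1 to 3 in males at 24 h, and in females from 3 to 4 at 24 h, 3 to 4 at 48 h, 2 to 4 at 72 h, 1 to 2 at 168 h, 0 to 1 at 48 against 24 h and 0 to 1 at 168 against 72 h, and from 0 to 1 for the sex difference at 72 h. Scaling to the library total changed the split of all genes called at 24 h to 1144 higher and 2369 lower in males, beside 1896 and 1847, and to 913 and 1382 in females, beside 1530 and 1205. In females at 72 h it gave 2433 and 972, beside 1861 and 1463, and quantile normalization gave 1160 and 1539 at 24 h and 580 and 678 at 168 h, beside 697 and 485. The female 24 h and 72 h libraries had the fewest reads, and what this does to the calls was not tested.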

Other observations

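Of 12 genes that the muscle clock is known to time, a few were called in each direction. Of these, 11 were in the female table, where 3, 4, 1 and 2 were higher and 1, 1, 1 and 0 lower at 24, 48, 72 and 168 h, beside 13.8%, 21%, 16.8% and 6.3% of all genes higher and 10.9%, 17.1%, 13.2% and 4.38% lower. All 12 were in the male table, where 4, 3, 0 and 2 were higher and 2, 2, 0 and 2 lower, beside 14.8%, 16.3%, 5.61% and 11% of all genes higher and 14.4%, 14.7%, 5.22% and 11.5% lower. Several of these counts lie near the share of all genes. Ppargc1b, which encodes a coactivator of mitochondrial genes, changed by -1.45 ± 0.26, -1.55 ± 0.26, -0.95 ± 0.26 and -0.79 ± 0.27 (not called) in females and by -1.29 ± 0.21, -1.13 ± 0.21, -0.59 ± 0.21 (not called) and -0.71 ± 0.21 in males. Por, whose product passes electrons to cytochrome P450 enzymes, changed by 0.46 ± 0.14, 0.66 ± 0.14, 0.47 ± 0.14 and 0.13 ± 0.14 (not called) in females and by 0.38 ± 0.13, 0.51 ± 0.13, 0.04 ± 0.13 (not called) and -0.13 ± 0.13 (not called) in males. Klf15, which encodes a regulator of amino acid use, changed by 0.59 ± 0.14, 0.61 ± 0.14, 0.28 ± 0.14 (not called) and 0.61 ± 0.14 in females, and Tcap, which encodes a Z-disc protein, by 0.87 ± 0.18, 0.37 ± 0.18 (not called), 0.28 ± 0.18 (not called) and 0.46 ± 0.19 (not called). In males Pdk4, whose product holds back glucose oxidation, changed by 2.11 ± 0.50, 2.11 ± 0.49, 0.30 ± 0.49 (not called) and 2.18 ± 0.50, and Ucp3, which encodes a mitochondrial carrier of muscle, by 1.42 ± 0.36, 1.34 ± 0.36, 0.30 ± 0.36 (not called) and 1.25 ± 0.36. All are log2 changes against 0 h ± SE in the limma fit.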
